A study of Gallus gallus with 4 samples.

Results

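NCF1, MRC2, C5 and ITGB3 are 4 genes of phagocytes, blood clotting cells and the complement system, and they were followed in the chicken ovary among 17934 genes. They were chosen by name, after it was known that the study called them as differentially expressed between ages. Their identifiers (ENSGALG00000001189 for NCF1, ENSGALG00000000461 for MRC2, ENSGALG00000001565 for C5 and ENSGALG00000000379 for ITGB3) were taken from the study's gene table and looked up in the deposited lists. Ovaries of Ningdu Yellow hens were compared between ages in 2 sub-breeds that differ in the onset of sexual maturity. The early-maturing hens gave P-F-O2 (103 days, laying) and P-F-O1 (32 days, pre-laying). The late-maturing hens gave L-F-O2 (153 days) and L-F-O1 (32 days, pre-laying). The sample label of L-F-O2 says laying and the design text says pre-laying, so this library is named here by its age. The 2 comparisons differ in sub-breed, in the age of the older library and perhaps in its laying state, and these cannot be told apart. Each of the 4 libraries was a pool of ovaries with 1 library per condition, and no difference between ages had a replicate check. The deposited tables hold lists of called genes under terms of the gene ontology (GO) and pathways of the KEGG database, with no expression level, direction of change or read depth. The paper reports more reads, and a lower mapped percentage, for the older than for the younger library in both sub-breeds. Depth and mapping therefore go together with age in both comparisons, and their effect on the calls was not tested. A gene is "called" below where the authors listed it as differentially expressed between the 2 ages of a sub-breed.

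Phagocytes engulf microbes and dead cells into a vesicle, the phagosome, where they are killed with oxidants and digested. In the hen ovary, phagocytes are known for clearing follicles that regress or have ovulated. Complement is a cascade of plasma proteins that marks targets for engulfment, attracts leukocytes and punctures membranes. NCF1 is the subunit that assembles the phagocyte NADPH oxidase, the enzyme that makes superoxide. MRC2 belongs to the mannose receptor family and, in mammals, takes up collagen into fibroblasts and macrophages. C5 is the complement protein whose cleavage releases a peptide that attracts leukocytes and a fragment that starts the membrane attack complex. ITGB3 is an integrin beta chain that binds fibrinogen and vitronectin on platelets, osteoclasts and vessel cells in mammals.

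All 4 genes were called in early-maturing hens, and 3 of the 4 were called in late-maturing hens. NCF1 was the gene called in early-maturing hens alone. The background was 28.1% of all population genes called in early-maturing hens and 23.2% in late-maturing hens. Since these calls are what led to the choice of the genes, their number says nothing beyond that choice. The call of NCF1 stood in all 16 early GO lists that hold it and in 1 early pathway. In late-maturing hens NCF1 was in the population of 15 listed GO terms and was called in 0 of them. C5 was called in 15 of 15 early and 16 of 16 late GO lists. ITGB3 was called in 9 of 9 early and 15 of 15 late GO lists. A gene has 1 call per sub-breed, and every list that holds the gene repeats it. These numbers of lists therefore reflect annotation and are not separate evidence for a call. MRC2 was in none of the listed GO terms, and among the deposited lists its call stands on 1 pathway list in each sub-breed. The gene table that gave its identifier holds only genes called in early-maturing hens, so its early call also follows from the naming. Whether NCF1 changed by a different amount in the 2 sub-breeds was not tested, since a call that is missing in late-maturing hens does not show a difference.

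**Figure D1:**
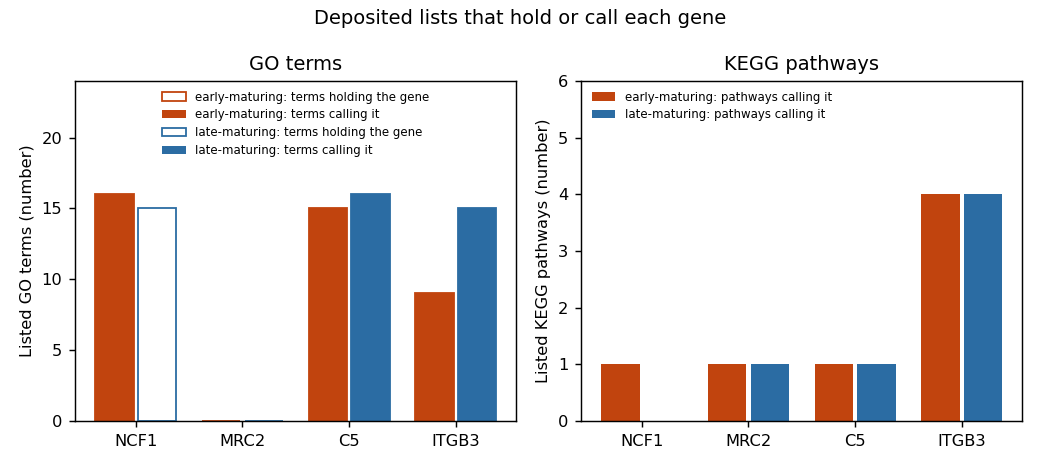
Number of listed GO terms (left) and KEGG pathways (right) for each gene, with early-maturing hens (P-F-O2 against P-F-O1) in orange and late-maturing hens (L-F-O2 against L-F-O1) in blue; outlined bars are terms that hold the gene and filled bars are lists that call it. NCF1 has an empty late bar of 15 terms, and MRC2 has 0 terms and 1 pathway in each sub-breed. The lists of a sub-breed all repeat the same call of a gene.

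The 4 genes were annotated in different places. In total, 46 listed GO terms held at least 1 of them, and 6 of these terms held more than 1. NCF1 and ITGB3 shared 4 terms, which were cell part, cellular component, response to stimulus and single-organism process. NCF1 and C5 shared cellular component and regulation of multicellular organismal process. C5 and ITGB3 shared cellular component and regulation of localization. All the shared terms were broad, with 599 or more population genes. Among 7 listed terms with immunity or defense in their name, 4 held a gene of the set: NCF1 was in immune system process, immune effector process and defense response, and C5 was in regulation of immune system process. Immune response, with 103 of 192 genes called in early-maturing hens and 80 of 192 in late-maturing hens, held none of the 4. No listed term had complement, phagocytosis or inflammation in its name. The early pathway table named NCF1, MRC2 and ITGB3 together in phagosome and the late one named MRC2 and ITGB3, whereas C5 was in another pathway. The name phagocyte and complement genes rests on known roles, and the early phagosome list joined 3 of the 4 genes. That list names only called genes, so it depends on the calls that led to their choice.

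In the phagosome pathway, 13 of 24 background genes were called in early-maturing hens (54.2%) and 11 of 24 in late-maturing hens (45.8%). Of all population genes, 28.1% were called in early-maturing and 23.2% in late-maturing hens. The pathway counts include NCF1 (early alone), MRC2 and ITGB3, whose calls led to their choice. MRC2 and ITGB3 were among the 10 genes called in both. The other named ones were BF1, an MHC class I molecule, BLB1, DMA and DMB2 of MHC class II presentation, TAP2, which carries peptides to class I, and CTSS, a lysosomal protease that trims the class II invariant chain. NCF1 was among the 3 genes called in early-maturing hens alone. Beside it stood MPO, the peroxidase of granulocytes, which turns hydrogen peroxide into a stronger oxidant, and ENSGALG00000002207, which has no name in the table used. In late-maturing hens all 3 were in the GO population and were not called. The 10 genes called in both were 76.9% of the early and 90.9% of the late called genes of the pathway. Over all GO lists these shares were 63.6% and 77.7%. The pathway shares again count genes of the set, and nothing is read from so few genes. A single gene without a name, ENSGALG00000002503, was in the late list alone. It was absent from the early list of called genes of this pathway. With no listed GO term to check against, its early call is classed as unknown. Of the 14 genes called in either sub-breed, MRC2 and 2 genes without a name had no listed GO term.

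**Figure D2:**
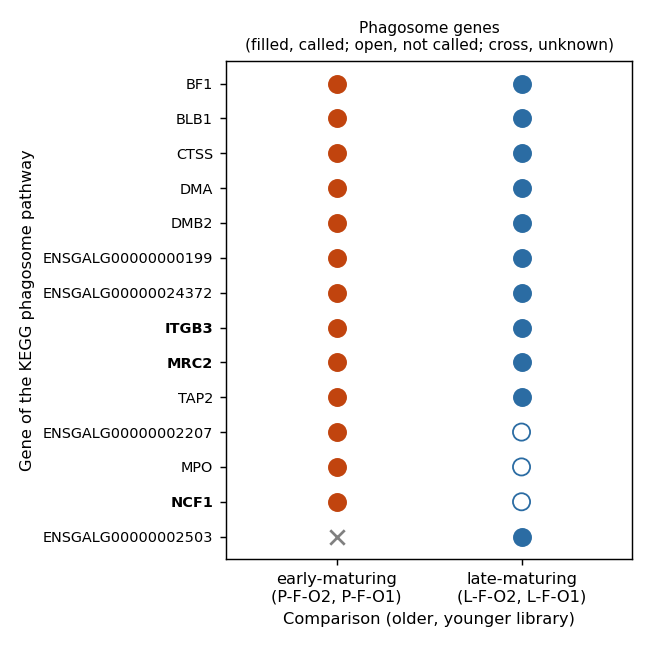
The 14 phagosome genes called in either sub-breed, one per row, with NCF1, MRC2 and ITGB3 in bold. Points are filled where the gene was called and open where it was not. A cross marks a call classed as unknown (ENSGALG00000002503 in early-maturing hens). The 10 genes at the top are called in both sub-breeds, and NCF1, MPO and ENSGALG00000002207 are called in early-maturing hens alone.

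Among terms of up to 1000 genes, NCF1 was held mainly by 2 kinds. Its immune and defense terms had more called genes than the background and its transport terms had fewer, in both sub-breeds. For immune effector process, 42 of 88 genes were called in early-maturing hens (47.7%) and 30 of 88 in late-maturing hens (34.1%). For response to other organism, the counts were 53 and 34 of 111 genes (47.7% in early-maturing and 30.6% in late-maturing hens). Defense response had 81 called genes in early-maturing and 57 in late-maturing hens, of 175. These terms are listed in the early table alone, and their late counts were made from the identifiers called under the other late terms. In immune system process, which both tables list, 179 of 403 genes were called in early-maturing hens (44.4%) and 143 in late-maturing hens (35.5%). At the other end, intracellular protein transport had 65 of 358 genes called in early-maturing hens (18.2%) and 52 in late-maturing hens (14.5%), both under the background. Intracellular transport, the lowest of these in late-maturing hens, had 96 and 70 of 506 genes (19.0% in early-maturing and 13.8% in late-maturing hens). The terms in the tables had been selected by the authors' enrichment test, so their distance from the background is a description and not a test.

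Many genes had the same pair of calls as NCF1. Over all genes named in the GO lists, 3202 were called in early-maturing hens and 63.6% of these were called in late-maturing hens as well. Among the genes of the 11 terms with up to 1000 genes that hold NCF1, this share ran from 50.9% in response to other organism to 67.6% in immune system process. Response to other organism, like defense response and immune effector process, was selected by the early enrichment test alone. Immune system process is listed in both tables, so these shares also differ in how their terms were selected. In defense response 37 genes were called in early-maturing hens alone, as NCF1 was, and 13 in late-maturing hens alone. In immune effector process, 15 genes were called in early-maturing hens alone and 3 in late-maturing hens alone. Of the genes called in early-maturing hens, 54.3% in defense response and 64.3% in immune effector process were called in late-maturing hens as well. Of those called in late-maturing hens, 77.2% and 90% were called in early-maturing hens as well. Over all GO lists the latter share was 77.7% of 2620 genes, so defense response was near it. An early call is known for 2570 of the 2620, and the others count here as not called early. The 77.7% may thus be somewhat too low wherever it is given. Early-maturing hens had the higher called share in all 11 terms, and also the higher background.

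C5 stood among secreted proteins and inhibitors of proteases. C5 belongs to the same protein family as the macroglobulins, which trap proteases, and it was listed under peptidase inhibitor activity. In that term 63 of 128 genes were called in early-maturing hens (49.2%) and 60 in late-maturing hens (46.9%), with 49 called in both. Enzyme inhibitor activity had 83 and 78 of 176 genes called in early-maturing and late-maturing hens, 66 of them in both. Of the genes called in early-maturing hens, 77.8% and 79.5% in these terms were called in both, beside 63.6% over all GO lists. Of those called in late-maturing hens it was 81.7% and 84.6%, beside 77.7%. Both terms are listed in both tables and so were selected by both enrichment tests. Their distance from 63.6% and 77.7% is therefore a description and not a test. Extracellular region had 185 of 371 genes in early-maturing hens (49.9%) and 166 in late-maturing hens (44.7%). Extracellular space had 134 of 288 genes in early-maturing hens (46.5%) and 129 in late-maturing hens (44.8%). Both immune terms of C5 are listed in the early table alone. Regulation of cytokine production had 68 of 149 genes called in early-maturing hens (45.6%) and 51 in late-maturing hens (34.2%). Regulation of immune system process had 137 of 327 genes called in early-maturing hens (41.9%) and 105 in late-maturing hens (32.1%).

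Every listed term up to 1000 genes that holds C5 lay above the background, 14 of 14 in early-maturing and 13 of 13 in late-maturing hens. For all listed terms of that size, the counts were 83 of 121 in early-maturing and 86 of 134 in late-maturing hens. The median called share over the terms of C5 was 44.4% in early-maturing hens, against 35.9% over all listed terms. In late-maturing hens it was 38.9%, against 27.8%. Terms overlap heavily in their genes, so these counts are not independent. In the pathway tables C5 was in herpes simplex infection, a pathway of antiviral defense. There 13 of 24 background genes were called in early-maturing hens (54.2%) and 11 of 24 in late-maturing hens (45.8%). The backgrounds of all population genes were 28.1% and 23.2%. All 11 late genes were also called in early-maturing hens, beside 77.7% of all genes called in the late GO lists. They were C5, BF1, BLB1, DMA, DMB2 and TAP2 of antigen presentation, the chemokine CCL4, the cytokine subunit IL-12B, the nuclear body protein PML, and 2 genes without a name. C5 was itself chosen for its calls, and nothing is read from a share over so few genes. The splicing factor SRSF6 and a gene without a name were called in early-maturing hens alone. The 5 genes of antigen presentation and both genes without a name are in the phagosome list as well, so the lists of C5 and of the other 3 genes overlap in their called genes.

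ITGB3 stood among adhesion genes, and it was the only one of the 4 in more than 1 pathway. Integrin-mediated signaling pathway, the smallest of its terms, had 18 of 30 genes called in late-maturing hens (60.0%). In early-maturing hens, whose table does not list the term, 17 of the 29 genes with a known call were called (58.6%), and 13 were called in both. For cell-matrix adhesion, 17 of 41 genes were called in early-maturing hens (41.5%) and 21 in late-maturing hens (51.2%). These were the 2 terms of ITGB3 up to 1000 genes with the higher share in late-maturing hens. Both are listed in the late table alone, so they were selected by the late enrichment test and not by the early one. Cell adhesion had nearly equal shares, with 134 of 318 genes in early-maturing hens (42.1%) and 133 in late-maturing hens (41.8%). In this term 106 genes were called in both, which is 79.1% of the early and 79.7% of the late called genes. Over all GO lists these shares were 63.6% and 77.7%. Cell adhesion is listed in both tables and so was selected by both enrichment tests. External side of plasma membrane had 45 of 90 genes called in early-maturing hens (50.0%) and 43 in late-maturing hens (47.8%). In protein complex, a broad term, the called share was under the background, with 442 of 1835 genes in early-maturing hens (24.1%) and 339 in late-maturing hens (18.5%).

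**Figure D3:**
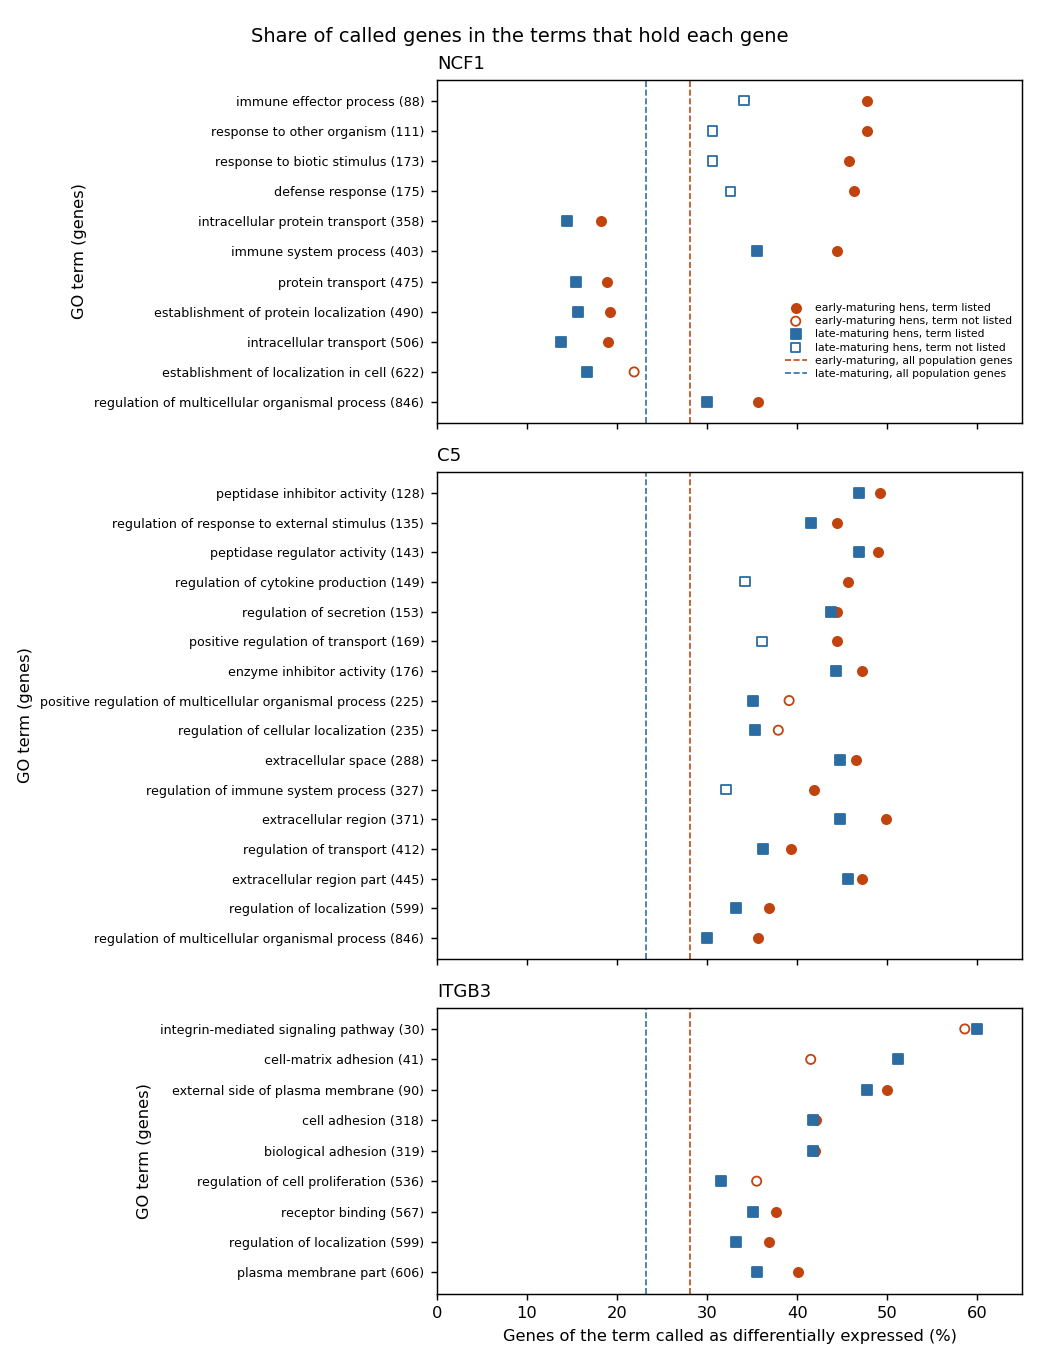
Percent of genes called in each GO term of up to 1000 population genes that holds NCF1, C5 or ITGB3 (the number of genes is in brackets), for early-maturing hens (orange circles) and late-maturing hens (blue squares); open symbols are terms not listed in that table and dashed lines are the backgrounds of 28.1% and 23.2%. The transport terms of NCF1 lie left of both lines, between 13.8% and 21.9%, and the terms of C5 and ITGB3 lie to the right.

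Outside phagosome, ITGB3 was called in ECM-receptor interaction, focal adhesion and regulation of actin cytoskeleton, through which integrins connect the matrix to the cell skeleton. ECM-receptor interaction had 4 of 10 genes called in early-maturing hens and 5 of 10 in late-maturing hens, beside backgrounds of 28.1% and 23.2%. The 4 were called in both, and besides ITGB3 they were the fibrillar collagen genes COL3A1, COL5A1 and COL5A2. Focal adhesion had 8 of 23 genes called in early-maturing hens (34.8%) and 7 in late-maturing hens (30.4%). All 7 were called in both, among them the same collagens and VAV3, an activator of small GTPases. Over all GO lists, 63.6% of the genes called in early-maturing hens and 77.7% of those called in late-maturing hens were called in both. ITGB3, chosen for its calls, is counted in these pathways, and nothing is read from so few genes. Regulation of actin cytoskeleton had 9 of 31 genes in early-maturing hens (29.0%) and 7 of 31 in late-maturing hens (22.6%), close to the backgrounds of 28.1% and 23.2%. GSN, which severs actin filaments, was there in the early list alone. It was absent from the late list of called genes of the pathway, and with no late GO list its late call is classed as unknown.

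**Figure D4:**
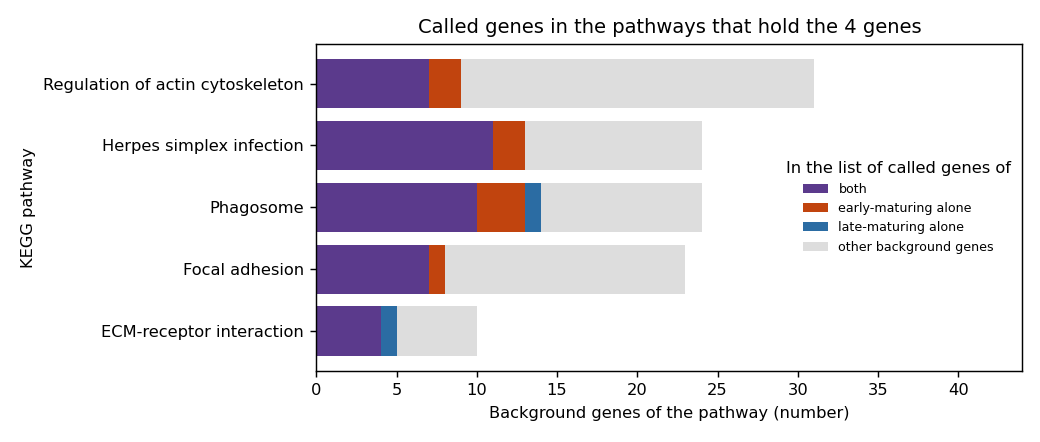
Background genes of the 5 KEGG pathways that hold the set, split into genes in the lists of called genes of both sub-breeds, of early-maturing hens alone and of late-maturing hens alone, with the other background genes in grey. Phagosome has 10 genes in both lists, 3 in the early list alone and 1 in the late list alone.

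The pathway tables covered few genes, which limits what they show of the set. They name 156 called genes in early-maturing hens and 132 in late-maturing hens, and 96.8% and 97.0% of these have identifier numbers below 3000. In the GO lists, 14.5% of the called genes in early-maturing and 13.9% in late-maturing hens lie in that range. All 4 genes of the set lie there. Among the GO-listed genes in that range, 27.9% were called in early-maturing hens and 21.3% in late-maturing hens. The backgrounds of all genes were 28.1% and 23.2%, and 28.0% and 22.1% over the genes named in the GO lists. The late share lay somewhat below both of its backgrounds.

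Other genes of the same systems were looked up from 5 lists of 50 phagocyte, complement, mannose receptor and integrin genes. The table used for names holds only genes called in early-maturing hens, and it named 10 of the 50, so their early call follows from the naming. Only a part of that table was used, with identifier numbers up to 9640, and it named 39.3% of the genes called in the early GO lists. Whether the other 40 genes were called could not be read. In late-maturing hens, 8 of the 10 were called and 2 were not. The 4 genes of the set are among these 10. Without them, 5 of 6 were called in late-maturing hens, beside 63.6% of all genes called in the early GO lists, and nothing particular to the lists is read from so few genes. Of the 24 complement genes, 21 had no name there. The 3 with a name were called in late-maturing hens, and these were C5, itself chosen for its calls, C1QB, a chain of the recognition complex of the classical pathway, and MASP2, the protease of the lectin pathway. Of the integrins, ITGB3 and ITGB2, the beta chain of leukocytes, were called in late-maturing hens and ITGA4, the alpha chain of a leukocyte homing receptor, was not. CTSS and TLR4, the receptor of bacterial lipopolysaccharide, were called in late-maturing hens. NCF1 was not. Among markers of blood cells, CD74 and CTSS of macrophages and CSF3R of granulocytes were called in both sub-breeds and MPO in early-maturing hens alone. The macrophage markers CSF1R, MARCO and MRC1 and the thrombocyte marker ITGA2B had no name in the part used. GP9 of thrombocytes had a name, so its early call also follows from the naming. It was in no GO or pathway list, so its late call could not be read from them. In a pool of whole ovaries, more cells of a type and more RNA per cell cannot be told apart, and the lists hold no level from which the share of such cells could be read.

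The genes most alike in annotation were found by the Jaccard index, the number of shared GO terms divided by the number of terms that either gene has, over 1291 named genes and 223 listed terms. These are genes named in the same part of the table of genes called in early-maturing hens, so uncalled genes, genes called late alone and those with identifier numbers above 9640 were not ranked. Within these genes, those most alike to ITGB3 were other adhesion genes, with ITGA11 and ITGA4 at 0.588 and ITGB2 at 0.458, followed by MFGE8, a secreted protein that bridges dying cells to integrins, at 0.409. For NCF1 the highest of those ranked was CARD9, a signaling adaptor of myeloid cells, at 0.407, which like NCF1 was called in early-maturing hens alone. PLEK, a protein kinase C substrate of platelets, followed at 0.393 and was called in both. Close behind were AP1S3 and ARMC3 at 0.364 and MLPH at 0.346. Of these, ARMC3 was called in both and the others in early-maturing hens alone. For C5 the highest of those ranked was CPAMD8, which is of the same macroglobulin family, at 0.368. It was called in early-maturing hens and not in late-maturing hens, where C5 was called. GHR, the growth hormone receptor, followed at 0.357 and was called in both. SRGN at 0.346 and GLMN at 0.310 were called in early-maturing hens alone, and SFRP2 at 0.306 in both. MRC2 had no listed term, so no such gene could be named for it.

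In the RefSeq annotation of the chicken assembly GRCg7b, MRC2, C5 and ITGB3 were found by symbol and NCF1 as a synonym of NCF1C. This is a later assembly than the galGal4 of the study and no position was taken from it. In its gene order ITGB3 and MRC2 are near neighbours, with the 3 genes EFCAB3, METTL2B and TLK2 between them. Both were called in both sub-breeds, but these calls led to their choice. No call is given here for the 3 genes between them, and a link between position and calls was not tested.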

How the data were processed

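RNA of pooled ovaries was sequenced in 4 libraries, 1 per condition. According to the methods and the processing notes, the authors cleaned the reads (SeqPrep, Sickle), mapped them to galGal4 (TopHat) and computed FPKM. Genes were called between the older and the younger library (Cuffdiff), on either their fold change or their p-value, and the called genes were tested with Goatools (GO) and KOBAS (KEGG). The 4 deposited tables hold numbers and identifiers of genes for each term or pathway. They also hold p-values of the enrichment, which were not used. No read depth per library was used, and the tables give no value per library.

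In the GO table of late-maturing hens, 44 line breaks inside gene lists were mended. Where a break fell inside an identifier, the identifier was completed from the intact ones of the same table, with 0 ambiguous cases. After this, 0 lists differed in length from the deposited number, though a length cannot show a wrongly completed identifier. The parser was tested on simulated data. The background is the study genes over the population genes. A gene was taken as not called where it was in the GO population of a table and in no list of called genes, and as unknown where it was in neither. Names of 1539 identifiers came from a part of the study's supplementary table of genes called in early-maturing hens, of which only the identifier and name columns were read. Its counts and FPKM were not used here. In the gene lists, 1 gene is not reported here. The text names the 4 genes, those of the fixed lists with a name, up to 5 genes most alike in annotation, and called genes of the pathways. The genes of the pathways other than phagosome, and the unnamed ones, were chosen after their values were seen. The members and lists were chosen with earlier results of these data known. No test was made, because each condition had 1 library and the calls themselves led to the choice of genes. Alternatives were other term sizes and categories, single kinds of list and other backgrounds. Calculations used Python 3.11.15, pandas 2.3.3 and SciPy 1.17.1.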

Additional observations from a re-analysis of the deposited data

How the results depend on the processing

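The number of calls over the 4 genes and both sub-breeds was 7, and it was 5 from GO lists alone and 7 from KEGG lists alone. Up to 1000 population genes, the GO terms holding NCF1, C5 and ITGB3 numbered 11, 16 and 9, against 19, 19 and 15 without a limit. By category, NCF1 had 14 biological process, 1 molecular function and 4 cellular component terms, C5 had 12, 3 and 4, and ITGB3 had 8, 1 and 6. Genes sharing a term with a gene of the set were taken in each sub-breed from the terms that its own table lists. The early and late shares below are therefore over different genes. With no limit, C5 had 2824 such genes in early-maturing and 9718 in late-maturing hens. Cellular component, with 9445 genes, is listed in the late table alone. Of the genes sharing a term of up to 500 genes with NCF1, 31.9% were called in early-maturing hens. The share was 43.4% with terms up to 200 genes, 26.9% with no limit, and 43.7% without transport and protein localization terms, an alternative added after the data were seen. In late-maturing hens the share for NCF1 was 24.6%, and 35.6% without these terms. For C5 in early-maturing hens it was 42.7%, with 39.2% up to 1000 genes and 36.7% with no limit, and in late-maturing hens 37.9%, with 41.0% up to 200 genes, 34.4% up to 1000 and 22.2% with no limit. For ITGB3 in early-maturing hens it was 43.2%, with 49.4%, 38.3% and 26.9% for the same limits, and in late-maturing hens 42.6%, with 47.9%, 33.4% and 22.1%. The cause of these shifts was not tested. The late background of 23.2% was 22.1% over genes named by identifier, 22.0% up to the largest KEGG identifier and 21.3% below 3000, the last added after the data were seen. The other settings stayed within 1.5 times the count or within the 95% interval of the share (27 planned and 5 added). Leaving out the largest pathway gave no value for NCF1, MRC2 and C5, which are in 1 pathway each. No paired analysis was possible because each condition had 1 library, and no replicate could be left out for the same reason.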
